A study of Homo sapiens with 9 samples.

Results

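The let-7 axis of a seminoma cell line was examined through 9 genes, LIN28A, LIN28B, HMGA1, HMGA2, IGF2BP1, IGF2BP2, IGF2BP3, L1TD1 and TRIM71. They were taken by gene symbol from a table of 63856 genes. Each symbol belonged to 1 gene, and 9 of 9 genes had enough counts to be tested among 18452 genes. Members were picked by gene name, with earlier results of these data known. HMGA2 and L1TD1 were, however, also among the genes that the study itself selected from these libraries, so their decrease is not independent evidence.

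The let-7 microRNAs are short RNAs that mark differentiated cells and hold down their target mRNAs through the 3′ untranslated region (UTR). LIN28A and LIN28B are RNA-binding proteins of stem and germ cells that block the maturation of let-7, and their own mRNAs carry let-7 sites. HMGA1 and HMGA2 are small chromatin proteins, IGF2BP1 to IGF2BP3 bind and stabilize mRNAs of fetal growth, TRIM71 represses mRNAs in stem cells, and L1TD1 is an RNA-binding partner of LIN28A in pluripotent cells. Many of these genes are classical let-7 targets and are active in germ cell tumours.

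RNA was sequenced from TCam-2, a human testicular seminoma cell line, in 9 samples. The 3 wild-type samples (WT) were unmodified cells. The 3 negative control samples (NC) received sgRNAs that match nothing specific in the human genome, and the 3 ESX1 samples received sgRNAs for ESX1, an X-linked homeobox gene, with the CRISPRa system, which places an activating dCas9 at a promoter. Both transfected groups went through the plasmids, antibiotic and doxycycline of that system and WT did not, and the fluorescent marker of the plasmids was seen in only a part of the transfected cells. All groups come from 1 cell line, and the study calls the 3 samples of a group biological replicates.

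Between 5212804 and 10644408 counts were assigned to genes per sample, with ESX1 replicate 3 the smallest library. The level of ESX1 itself was 3.61 ± 0.47 CPM (its count as a share of the TMM-scaled library) in WT, 3.33 ± 0.38 in NC and 48.0 ± 14.4 in the ESX1 group (SD, n = 3), which matches the labels. The seminoma markers, among them POU5F1, NANOG and KIT, together reached 3760 to 4564 CPM in WT, 2889 to 3081 in NC and 1626 to 1955 in ESX1. In the ESX1 group, 8 of 10 of these markers were at least 2-fold lower than in WT at an adjusted p below 0.05 (4.77% of all genes were). That number was 1 of 10 (NANOG) against NC and 1 of 10 (KIT) for NC against WT, beside 0.699% and 2.15% of all genes. At the same adjusted p with no minimum fold, 9 of 10 were lower in ESX1 than in WT (15.8% of all genes were). In ESX1 against NC 7 of 10 were lower (2.37%), and in NC against WT 7 of 10 were lower (10.3%). The sum over 7 Sertoli and Leydig cell markers was 9.47 to 15.4 CPM in WT, 12.6 to 19.7 in NC and 11.5 to 27.2 in ESX1, and that over 5 leukocyte and fibroblast markers was 2.33 to 9.06, 15.8 to 20.5 and 10.7 to 30.3. COL1A1, a fibroblast collagen, was higher than in WT (log2 fold change 2.27 in ESX1 and 2.19 in NC). CYP11A1, a Leydig cell enzyme, also passed as higher than in WT in ESX1 and in NC. It averaged 0.31 CPM in WT, 1.31 in NC and 1.39 in ESX1. Every WT library had 3 counts of it or fewer, so no fold is given. SOX9, a Sertoli cell factor, was higher in ESX1 than in NC (log2 fold change 1.83). Its means were 2.45 CPM in WT, 1.24 in NC and 4.45 in ESX1, and neither group passed against WT. CYP17A1, INSL3, CD3E and PTPRC were at or under 3 counts in every library. The mitochondrial share of counts was 17.02% to 18.3% in WT, 14.5% to 15.3% in NC and 19.2% to 19.9% in ESX1, with no overlap. The part of these markers and of the mitochondrial share in the results was not tested. The sum over 4 embryonal carcinoma markers was 56.9 to 83.7 CPM over all samples, most of it from DNMT3B. DNMT3B averaged 74.8, 59.1 and 52.9 CPM in WT, NC and ESX1, and SOX2 averaged 4.24, 9.84 and 7.86. By edgeR, DNMT3B was lower in ESX1 than in WT (log2 fold change −0.49, adjusted p = 0.00712). SOX2, 1 of 2 markers tested, was at least 2-fold higher in NC than in WT (1.23, 0.0222), beside 3.12% of all genes. In such bulk samples, fewer cells with a transcript and less of it per cell cannot be told apart.

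One library stood apart. Interferon response genes (10 genes such as IFIT1 and OAS1) summed to 25.002 to 32.5 CPM in WT and 425 to 437 CPM in NC. For NC against WT, 9 of 9 tested genes passed the 2-fold rule as higher by edgeR and 3 by DESeq2. By edgeR, 3.12% of all genes did. In the ESX1 group the sum was 30.9 and 39.0 CPM in replicates 1 and 3 but 428 CPM in replicate 2. The level of ESX1 in that library was 55.7 CPM, close to the 57.0 CPM of replicate 1, while replicate 3 had 31.4 CPM. Results are therefore also given without ESX1 replicate 2, and the part of the interferon response in them was not tested.

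The sequences below show members of the let-7 family and matches to its seed in 7 of the 9 genes. The 9 distinct 5p strands of the human let-7 family, made from 12 hairpins, share 1 seed, the bases 2 to 8 that pair with a target, here in capitals. A few are shown, which differ outside the seed (mature sequences of RefSeq, GRCh38.p14).
hsa-let-7a-5p: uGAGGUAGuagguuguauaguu
hsa-let-7d-5p: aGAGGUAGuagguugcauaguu
hsa-let-7g-5p: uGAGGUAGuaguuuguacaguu
hsa-miR-98-5p: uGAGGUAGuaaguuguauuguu

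LIN28 proteins are known to recognize GGAG in the loop of let-7 precursors. These letters, searched on the RNA strand after the 5p strand, were present in 9 of 12 hairpins. The hairpin of let-7g (chr3:52268278-52268361, minus strand) holds them and that of let-7a-3 (chr22:46112749-46112822, plus strand) does not. Capitals mark the seed and the GGAG letters.
MIRLET7G: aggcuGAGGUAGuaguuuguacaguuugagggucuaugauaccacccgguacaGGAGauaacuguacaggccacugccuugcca
MIRLET7A3: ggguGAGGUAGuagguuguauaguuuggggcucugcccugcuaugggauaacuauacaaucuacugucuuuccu

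The complement of the seed was then searched on the transcript strand of the 3′ UTR of each main transcript (GENCODE 44). An 8mer is CTACCTCA, a 7mer-m8 is CTACCTC not followed by A, and a 7mer-A1 is TACCTCA not preceded by C, so no site was counted more than once. An 8mer was present in 7 of 9 genes and any of these sites in 8 of 9. Over the 3′ UTRs of 19287 protein-coding genes, 3.72% held an 8mer and 15.8% held any site. The set was assembled around let-7, so this is only a description of it. A match is not proof of a functional site.

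TRIM71 held 8 sites, 4 of them 8mers, and HMGA2 held 7 sites in 2999 bases, the densest of the set at 2.33 sites per kb against 0.11 over all genes. LIN28B and IGF2BP1 held 5 sites each, IGF2BP2 held 3, and LIN28A, IGF2BP3 and HMGA1 held 1 each. L1TD1 held 0 in its 956 bases, which says only that these letters are missing from this window. One 8mer of each gene that has one is printed with the 14 bases before it, the 8mer in capitals.
HMGA2, 3′ UTR bases 21 to 28: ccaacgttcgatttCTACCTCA
LIN28B, 3′ UTR bases 44 to 51: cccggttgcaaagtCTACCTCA
LIN28A, 3′ UTR bases 905 to 912: cacagcctattgaaCTACCTCA
TRIM71, 3′ UTR bases 252 to 259: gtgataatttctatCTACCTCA
IGF2BP1, 3′ UTR bases 1632 to 1639: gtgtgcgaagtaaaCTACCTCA
IGF2BP2, 3′ UTR bases 1304 to 1311: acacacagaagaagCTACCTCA
IGF2BP3, 3′ UTR bases 560 to 567: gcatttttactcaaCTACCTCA

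**Figure D1:**
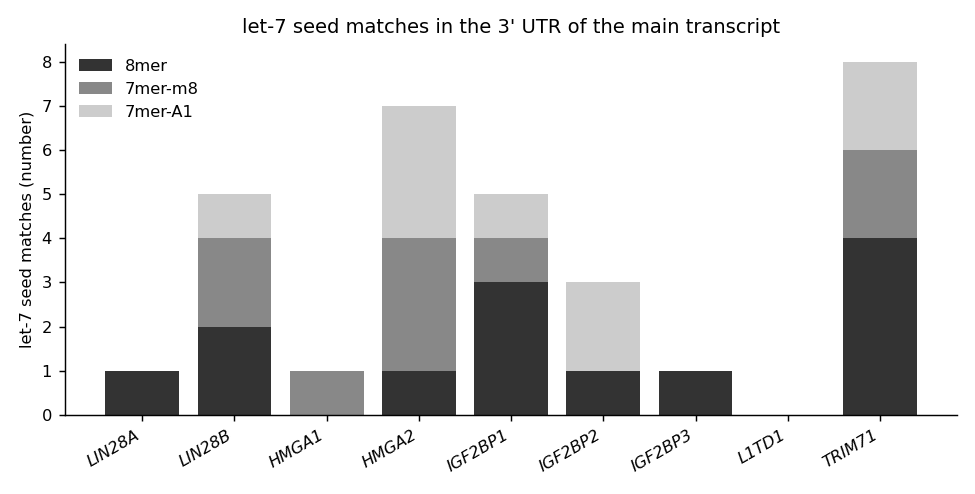
Number of let-7 seed matches (y axis) in the 3′ UTR of the main transcript of each of the 9 genes (x axis), stacked as 8mers, 7mer-m8 and 7mer-A1 sites. TRIM71 with 8 and HMGA2 with 7 have the most and L1TD1 has 0.

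Per kb of exon, a scale on which genes can be set beside each other, L1TD1 had the highest level in WT at 202 ± 11.8 CPM per kb (SD, n = 3). LIN28A (82.2 ± 12.8) and TRIM71 (80.2 ± 7.28) followed and overlapped. IGF2BP1 (64.2 ± 4.09), HMGA1 (60.5 ± 8.005) and LIN28B (56.6 ± 8.93) also overlapped among themselves. IGF2BP2 (18.4 ± 1.79) and IGF2BP3 (16.5 ± 1.17) lay below these and overlapped, and HMGA2 was lowest at 1.75 ± 0.38 CPM per kb. The exons listed for HMGA2 cover 15403 bases over all its isoforms, which lowers its value per kb. In the ESX1 group, L1TD1 was still highest at 76.8 ± 16.6 CPM per kb. LIN28A, at 20.7 ± 5.86, had moved from second to sixth place in that group.

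Against WT, 3 of the 9 genes were at least 2-fold lower in the ESX1 group at an adjusted p below 0.05 (edgeR), namely LIN28A, HMGA2 and L1TD1, and 0 were higher, also at an unadjusted p below 0.05. Over all 18452 genes tested, this rule called 4.77% lower and 6.78% higher. At an adjusted p below 0.05 with no minimum fold, 8 of the 9 genes were lower, against 15.8% of all genes. This second count was 5 (LIN28A, HMGA2, IGF2BP1, L1TD1 and TRIM71) with DESeq2. For HMGA1, IGF2BP2 and IGF2BP3 the adjusted p-values by edgeR were just under the threshold. Against NC, 2 genes (HMGA2 and L1TD1) were at least 2-fold lower and 0 higher, against 0.699% and 1.08% of all genes, and 5 were lower with no minimum fold, against 2.37%. Between the controls, NC was at least 2-fold lower than WT in 1 gene, LIN28A, with 0 higher, against 2.15% and 3.12% of all genes. NC was lower with no minimum fold in 2 (LIN28A and TRIM71), against 10.3%.

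The median log2 fold change of the 9 genes was −0.50 (ESX1/WT), −0.44 (ESX1/NC) and −0.25 (NC/WT), while the medians over all genes tested were 0.01, 0.00 and 0.01. The 10 seminoma markers had lower medians than the 9 genes, at −1.23, −0.70 and −0.55, so a decrease was not particular to this set. Lower than both controls were 2 of the 9 genes by the 2-fold rule, against 0.585% of all genes, and 5 with no minimum fold, against 2.13%. These 3 comparisons share samples, so their values are set side by side and not counted as separate evidence. In 6 genes (LIN28A, HMGA2, IGF2BP1, IGF2BP2, L1TD1 and TRIM71) the 3 ESX1 samples lay below the 6 control samples without overlap, which 7.21% of all genes did. In 3 of these (LIN28A, L1TD1 and TRIM71), NC also lay wholly between ESX1 and WT, against 3.52% of all genes. Without ESX1 replicate 2, the 2-fold counts were 3, 2 and 1 and the counts with no minimum fold 8, 5 and 2, with LIN28B in place of HMGA1 among the 8. The 2-fold counts were the same without any 1 of the 9 libraries. The counts with no minimum fold were 5 to 8 against WT and 2 to 5 against NC over those fits (2 without NC replicate 3, 3 without NC replicate 1, NC replicate 2 or ESX1 replicate 3). Between the controls they were 1 to 2 (1 without WT replicate 2, WT replicate 3 or any NC replicate). Against WT, 5 came without WT replicate 3, ESX1 replicate 3 or any NC replicate.

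**Figure D2:**
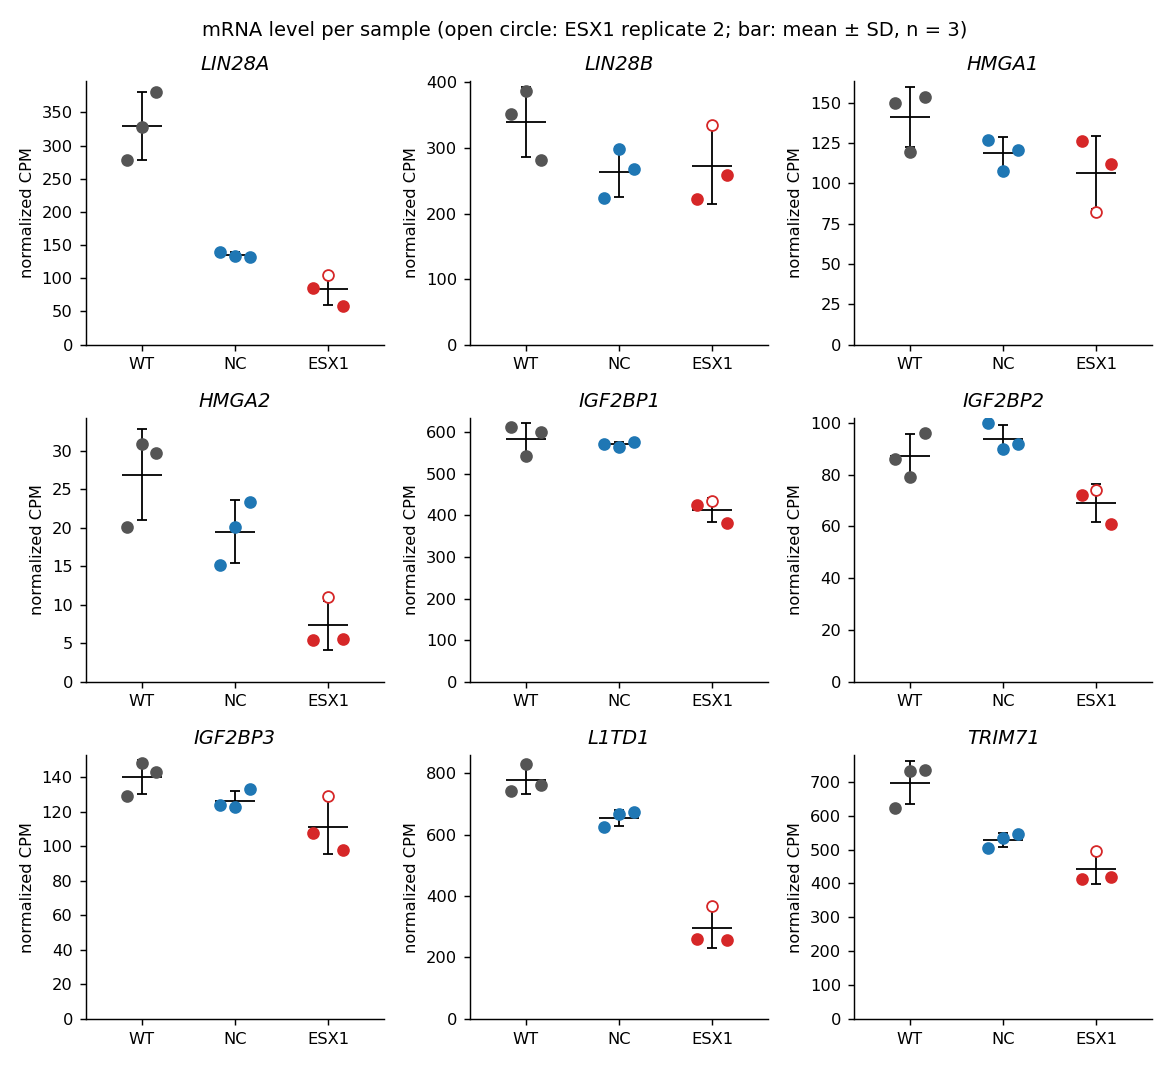
Normalized CPM (y axis, from 0) of each gene in the 3 WT, 3 NC and 3 ESX1 samples. Each circle is a sample, the open circle is ESX1 replicate 2, and the horizontal and vertical bars give the mean ± SD. In LIN28A, HMGA2, IGF2BP1, IGF2BP2, L1TD1 and TRIM71 the ESX1 samples lie below both controls without overlap.

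LIN28A, on chromosome 1 of GRCh38 (26410778 to 26429722, plus strand, ENSG00000131914.10), showed the largest change of the set against WT. Its normalized level was 279, 328 and 381 CPM in the WT samples, 140, 133 and 133 in NC, and 85.6, 105 and 58.6 in ESX1. The 3 groups did not overlap, and NC was already well below WT. LIN28A was 3.94-fold lower in ESX1 than in WT (log2 fold change −1.98 ± 0.17 SE, adjusted p = 3.34e-07) and 2.43-fold lower in NC than in WT (−1.28 ± 0.17, adjusted p = 8.58e-05).

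ESX1 against NC gave a smaller difference in LIN28A, 1.62-fold (log2 fold change −0.70 ± 0.17, adjusted p = 0.0220). That last call depended on single libraries. It did not pass without NC replicate 1 (adjusted p = 0.0828), NC replicate 2 (0.0739), NC replicate 3 (0.0879) or ESX1 replicate 3 (0.0888, log2 fold change −0.49), while without ESX1 replicate 2 it was −0.90 with an adjusted p of 0.00295.

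LIN28B, the paralog on chromosome 6 (104936616 to 105083332, plus strand), had 351, 386 and 281 CPM in WT, 224, 299 and 268 in NC and 222, 335 and 259 in ESX1. The groups overlapped in every comparison. The log2 fold change was −0.32 ± 0.15 for ESX1 against WT (adjusted p = 0.135), 0.05 ± 0.15 for ESX1 against NC (0.933), and it was −0.37 ± 0.15 for NC against WT (0.115). The sample of 335 CPM was ESX1 replicate 2, and without it the log2 fold change against WT was −0.50 (adjusted p = 0.0185) and that against NC −0.14 (0.724). Without NC replicate 1 the difference from NC was also below 0, at −0.06.

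HMGA2, an architectural chromatin protein of embryonic and tumour cells on chromosome 12 (65824131 to 65966295, plus strand), was the gene with the largest decrease against NC. Its level was 20.1, 30.9 and 29.7 CPM in WT, 15.1, 20.04 and 23.3 in NC and 5.48, 10.97 and 5.54 in ESX1. ESX1 samples lay below all controls, and the highest of them was replicate 2, while NC and WT overlapped. HMGA2 was 3.59-fold lower than in WT (log2 fold change −1.84 ± 0.26, adjusted p = 6.30e-05) and 2.61-fold lower than in NC (−1.38 ± 0.26, adjusted p = 0.00484). NC against WT was −0.46 ± 0.24 and did not pass (adjusted p = 0.207). These values rest on 30 to 284 counts per library, the fewest of the set. Without ESX1 replicate 2 the log2 fold change was −2.29 against WT and −1.83 against NC.

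HMGA1, on chromosome 6 (34236873 to 34246231, plus strand), had 150, 119 and 153 CPM in WT, 127, 108 and 121 in NC and 126, 81.9 and 112 in ESX1. All groups overlapped. The log2 fold change against WT was −0.40 ± 0.15 with an adjusted p of 0.0491, and of the 9 fits with 1 library omitted it passed in 2, those without WT replicate 2 and without ESX1 replicate 1, with adjusted p-values of 0.0126 to 0.184 over the 9 fits. Against NC it was −0.15 ± 0.15 (adjusted p = 0.685), and 0.00 without ESX1 replicate 2, the lowest sample. Processed copies of HMGA1 exist, and 8 annotated pseudogenes held counts equal to 1.04% of those of HMGA1. Reads shared between the copies were not measured.

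Within the families, the log2 ratio of 2 genes per sample was compared between the 3 ESX1 and the 6 control samples with an exact permutation test over 84 splits, two-sided, for 5 pairs. HMGA2/HMGA1 was −2.90, −1.95 and −2.37 in WT, −3.07, −2.42 and −2.37 in NC and −4.51, −2.89 and −4.32 in ESX1. ESX1 replicates 1 and 3 were below all controls and replicate 2 was within their range. The difference of means was −1.40 (exact p = 0.0357, adjusted over the 5 pairs 0.0893). LIN28B/LIN28A was 0.33, 0.24 and −0.44 in WT, 0.68, 1.16 and 1.02 in NC and 1.37, 1.67 and 2.14 in ESX1. All 3 ESX1 samples exceeded all 6 controls, and NC exceeded WT. Its difference was 1.23 (exact p = 0.0238, adjusted 0.0893). By means, ESX1 exceeded NC by 0.78 and NC exceeded WT by 0.91. The test takes WT and NC as 1 group, so it cannot separate these differences.

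The differences of the 3 IGF2BP ratios were −0.09 for IGF2BP1/IGF2BP2 (exact p = 0.214, adjusted 0.268), −0.22 for IGF2BP1/IGF2BP3 (0.0595, adjusted 0.0992) and −0.13 for IGF2BP2/IGF2BP3 (0.321, adjusted 0.321). After adjustment 0 of 5 pairs passed, with 2 of 5 at an unadjusted exact p below 0.05. The smallest p this design allows is 0.0119, so a single pair at that value would not pass after adjustment over the 5 pairs.

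**Figure D3:**
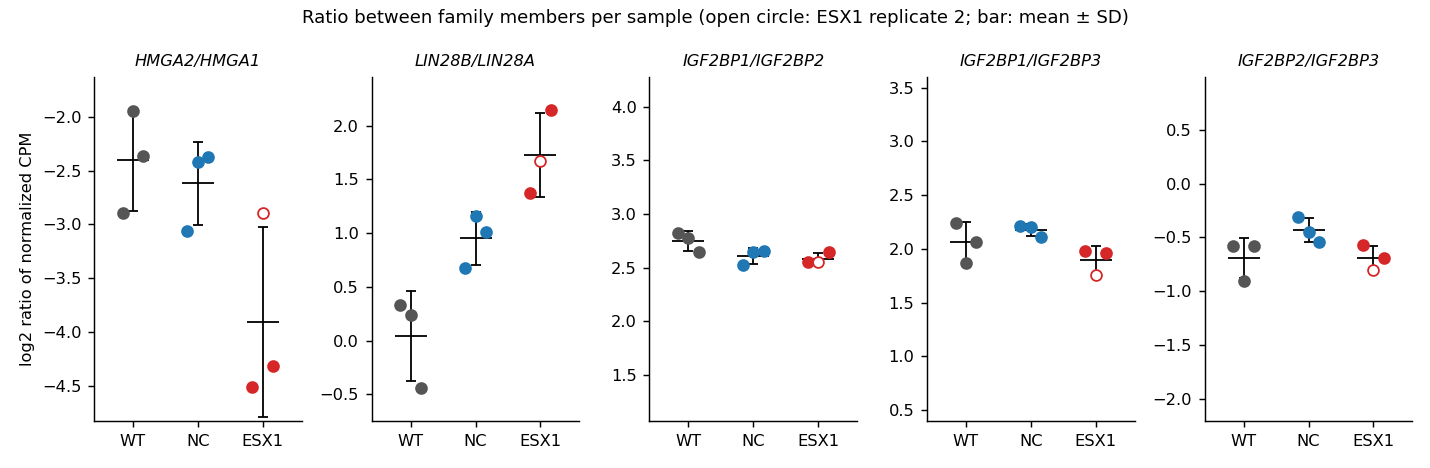
Log2 ratio of normalized CPM of 2 genes of a family (y axis, the same span in each panel) in WT, NC and ESX1 samples. Circles are samples, open for ESX1 replicate 2, and bars give the mean ± SD. HMGA2/HMGA1 fell from a mean of −2.40 in WT and −2.62 in NC to −3.91 in ESX1, a difference that did not pass after adjustment. The 3 IGF2BP ratios, which also did not pass, differed by at most 0.22 between ESX1 and WT and NC together. Against NC alone, IGF2BP1/IGF2BP3 differed by −0.28, IGF2BP2/IGF2BP3 by −0.25 and IGF2BP1/IGF2BP2 by −0.02.

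IGF2BP1, the family member with the highest level, lies on chromosome 17 (48997412 to 49055650, plus strand). It had 612, 542 and 600 CPM in WT, 573, 565 and 576 in NC and 426, 435 and 381 in ESX1. The controls overlapped and all ESX1 samples lay below them. IGF2BP1 was 1.41-fold lower than in WT (log2 fold change −0.50 ± 0.10, adjusted p = 0.00103) and 1.38-fold lower than in NC (−0.46 ± 0.10, adjusted p = 0.00958), short of the 2-fold mark. NC against WT was −0.03 ± 0.10 (adjusted p = 0.846). Leaving out NC replicate 3 gave −0.45 against NC with an adjusted p of 0.0799, whereas the other 8 fits passed.

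IGF2BP2, on chromosome 3 (185643739 to 185825056, minus strand), had 86.1, 79.1 and 96.0 CPM in WT, 99.8, 89.9 and 91.7 in NC and 72.3, 74.1 and 60.8 in ESX1. The pattern was that of IGF2BP1, with ESX1 below both controls and the controls overlapping. Its log2 fold change was −0.33 ± 0.12 against WT (adjusted p = 0.0443) and −0.44 ± 0.12 against NC (0.0441). Both calls were close to the threshold. Against WT only the fit without ESX1 replicate 2 passed of the 9 that left out a library (adjusted p 0.0331 to 0.236). Against NC the fits without WT replicate 1, WT replicate 3 and ESX1 replicate 2 passed (0.0333 to 0.216 over the 9 fits).

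IGF2BP3, on chromosome 7 (23310209 to 23470467, minus strand), had 129, 148 and 143 CPM in WT, 124, 123 and 133 in NC and 108, 129 and 97.9 in ESX1. Its ESX1 samples overlapped NC, and the highest was again replicate 2, just under the lowest WT sample. The log2 fold change was −0.33 ± 0.12 against WT (adjusted p = 0.0487) and −0.18 ± 0.12 against NC (0.513). The call against WT passed in 2 of 9 fits that left out a library, without WT replicate 1 and without ESX1 replicate 2 (0.00923 to 0.241 over the 9). Of its exon bases, 17.9% are shared with MALSU1 on the other strand. The counting did not use the strand, so reads from these bases cannot be assigned to either gene. The value of IGF2BP3 may lack them. The other 8 genes share at most 2.86% of their exon bases with another listed gene.

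L1TD1, on chromosome 1 (62194831 to 62212328, plus strand), had the highest level per kb of the set in all 3 groups. It had 742, 828 and 761 CPM in WT, 623, 665 and 674 in NC and 261, 369 and 256 in ESX1. The groups did not overlap, and the ESX1 samples lay far below both controls. The decrease was 2.63-fold against WT (log2 fold change −1.39 ± 0.13, adjusted p = 6.23e-07) and 2.21-fold against NC (−1.15 ± 0.13, adjusted p = 4.20e-05). For NC against WT the value was −0.25 ± 0.13 (adjusted p = 0.187). Without ESX1 replicate 2 the log2 fold change was −1.59 against WT and −1.34 against NC.

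TRIM71, on chromosome 3 (32818018 to 32897826, plus strand), had 624, 733 and 734 CPM in WT, 505, 533 and 545 in NC and 414, 494 and 418 in ESX1. WT, NC and ESX1 stood in this descending order with no overlap. Its log2 fold change was −0.66 ± 0.11 for ESX1 against WT (adjusted p = 0.000200) and −0.40 ± 0.11 for NC against WT (adjusted p = 0.0144). For ESX1 against NC it was −0.25 ± 0.11 and did not pass (adjusted p = 0.230, and 0.0859 without ESX1 replicate 2). The NC against WT call did not pass without WT replicate 2, WT replicate 3 or any 1 of the 3 NC replicates (adjusted p 0.0549 to 0.0822 in these 5 fits).

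**Figure D4:**
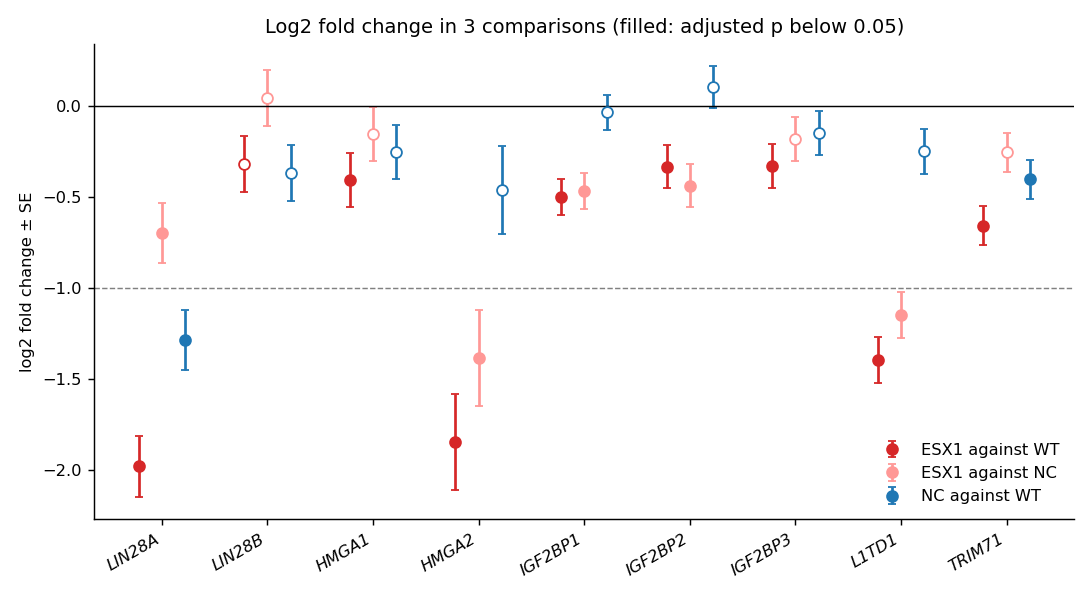
Log2 fold change ± SE (y axis) of each gene for ESX1 against WT, ESX1 against NC and NC against WT (edgeR, 3 samples per group). Filled circles have an adjusted p below 0.05 and the dashed line marks a 2-fold decrease. LIN28A, HMGA2 and L1TD1 pass it against WT, HMGA2 and L1TD1 against NC, and LIN28A for NC against WT.

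The genes that passed can be set side by side by the test of NC against WT. In IGF2BP1, IGF2BP2, HMGA2 and L1TD1, NC against WT did not pass and the ESX1 samples lay below both controls. In LIN28A and TRIM71, NC was itself lower than WT at an adjusted p below 0.05. The NC samples of L1TD1 also lay below WT without overlap, and a difference between these genes was not tested. NC and WT also differ in transfection, in the interferon sum and in the mitochondrial share, and the part of each was not tested.

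As a description across the 9 samples, which share groups and libraries, log2 CPM of HMGA2 and L1TD1 correlated with a Pearson r of 0.98 and that of LIN28A and TRIM71 with 0.97. IGF2BP1 and IGF2BP2 gave 0.92. LIN28A and LIN28B gave 0.56 and HMGA1 and HMGA2 0.35. LIN28B and HMGA1 gave −0.16, the lowest of the 36 pairs.

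The protein-coding genes most like each gene were sought among 8885 genes with a mean of at least 10 CPM. For LIN28A they were DCTN5 (r = 0.996), GLDC (0.994), the glycine decarboxylase, and SDC2 (0.992), a cell surface proteoglycan. For TRIM71 they included SENP2 (0.997) and AMMECR1 (0.991). HMGA2 was closest to STK39 (0.98), SOD2 (0.98), the mitochondrial superoxide dismutase, and RPS6KA5 (0.98). L1TD1 was closest to HIVEP1, ADAMTS9 and SERPINE2 (0.99 each). For IGF2BP1 the closest were TUBGCP3 (0.99), ERC1 (0.98) and ELMO1 (0.97), for IGF2BP2 PITPNA, ADAMTS2 (0.97 each) and GLG1 (0.96), and for IGF2BP3 EXO1 (0.98), SPDL1 (0.97) and GTPBP8 (0.96). LIN28B was closest to AP1S2 (0.98), GTF2A2 and KCTD9 (0.97 each), and HMGA1 to ZNF513 (0.98), PTBP1 (0.96) and ZNRF3 (0.95).

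The genes that make, tail, degrade or use let-7 were read from a list of 20, all of which were tested. By edgeR and by DESeq2, 0 passed the 2-fold rule in any of the 3 comparisons, while 10, 5 and 8 had an unadjusted edgeR p below 0.05. Of these, 3, 1 and 3 were higher and 7, 4 and 5 lower. The share of all genes at that unadjusted p was not counted, so these numbers show no excess. With no minimum fold, 3 were higher and 5 lower for ESX1 against WT (12.9% of all genes were higher and 15.8% lower), 1 was higher and 0 lower in ESX1 than in NC (1.88% and 2.37%), and in NC 2 were higher and 3 lower than in WT (6.82% and 10.3%). The medians were −0.03, −0.10 and 0.06.

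ZCCHC6 encodes the terminal uridylyltransferase TUT7, an enzyme that adds uridines to pre-let-7. It was the listed gene that passed in all 3 comparisons with no minimum fold, close to the threshold for ESX1/NC and NC/WT. It had 27.5, 24.6 and 22.1 CPM in WT, 33.1, 34.9 and 31.3 in NC and 46.5, 44.1 and 51.4 in ESX1. The groups rose in that order with no overlap, opposite to LIN28A. Its log2 fold change was 0.93 ± 0.14 for ESX1 against WT (adjusted p = 9.54e-05), 0.51 ± 0.14 against NC (0.0414), and NC exceeded WT by 0.42 ± 0.14 (0.0473). Without WT replicate 1 it passed the 2-fold rule against WT, giving 1 call in the list.

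Its partner ZCCHC11 (TUT4) had 0.21 against WT (adjusted p = 0.186) and 0.04 against NC (0.921). DICER1 and DROSHA, the nucleases of microRNA maturation, had −0.12 (0.485) and 0.01 (0.981) against WT. The Argonaute genes AGO3 (0.55, adjusted p = 0.00352) and AGO4 (0.53, 0.0174) were higher against WT. TNRC6C (−0.88, 9.62e-05), a scaffold of the silencing complex, was lower, as were HNRNPA1 (−0.73, 0.000881) and DDX17 (−0.69, 0.000181), RNA-binding proteins that take part in microRNA processing. None of these 5 passed against NC, where their log2 fold changes were 0.15, 0.28, −0.45, −0.41 and −0.16.

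Mature let-7 was not measured. Of 17 listed precursor and host genes, 2 had enough counts, both of them protein-coding hosts. HUWE1, an E3 ubiquitin ligase whose locus carries let-7f-2 and miR-98, was at −0.37 against WT and −0.28 against NC, and WDR82, whose locus carries let-7g, was at 0.17 and 0.04. With no minimum fold, 1 of these 2 genes was lower against WT and 0 against NC, beside 15.8% and 2.37% of all genes. The precursor genes themselves reached at most 13 counts in a library (MIRLET7D). MIRLET7A3, MIRLET7B and MIRLET7E share 100% of their bases with another annotated gene, and their reads may not be counted. They had 0 counts, as did MIRLET7A2 and MIRLET7C, which share 0 bases. A total RNA library holds few such short RNAs, and no difference was detectable at this depth.

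**Figure D5:**
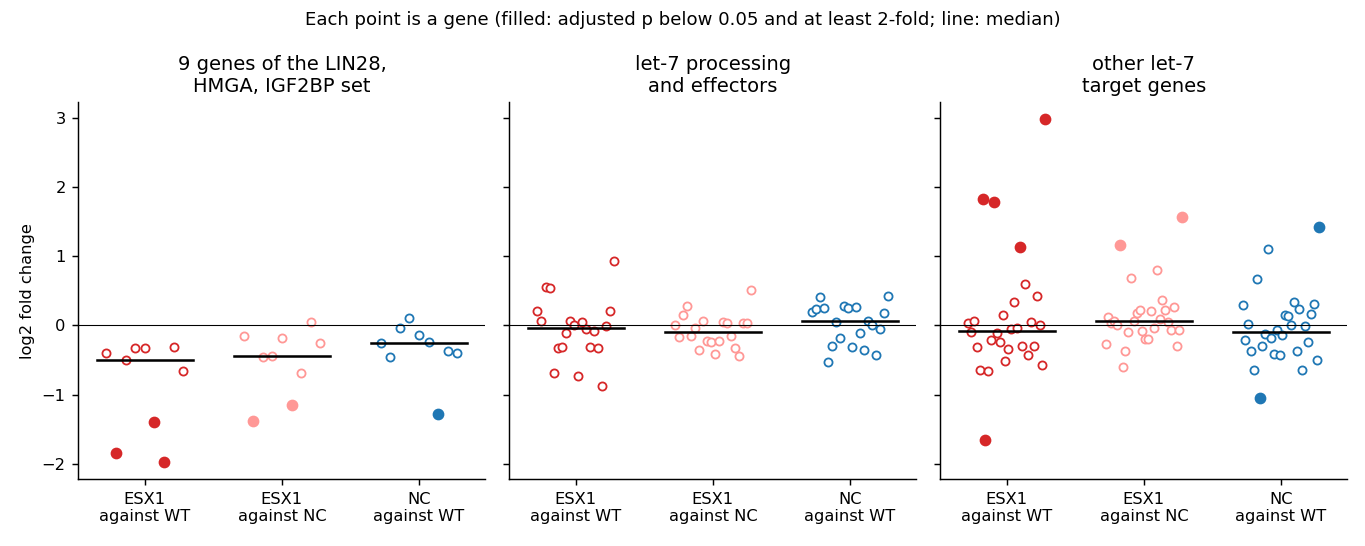
Log2 fold change (y axis, shared) of each tested gene in the 3 comparisons (x axis) for the 9 genes, the 20 genes of let-7 processing and the 28 other let-7 target genes. Filled points passed the 2-fold rule and lines are medians. The medians of the 9 genes are −0.50, −0.44 and −0.25, while those of the other lists shown lie between −0.10 and 0.06.

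Other known let-7 target genes moved in both directions. Of 28 listed and tested, of which 25 held a seed match in the 3′ UTR used here, 4 were at least 2-fold higher (CCND1, CDK6, IRS2 and THBS1) and 1 lower (CCND2) for ESX1 against WT, beside 6.78% and 4.77% of all genes. Relative to NC, 2 were higher (CCND1 and THBS1) and 0 lower, beside 1.08% and 0.699%. Between the controls, THBS1 was higher and CCND2 lower in NC, beside 3.12% and 2.15%. The list median was −0.08, 0.06 and −0.10.

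The D-type cyclins of the list moved apart. CCND1, which drives entry into the cell cycle and which the study picked from these libraries, had 46.6, 30.03 and 34.7 CPM in WT, 61.7, 62.9 and 53.5 in NC and 154, 137 and 104 in ESX1. Its ESX1 samples exceeded all controls, with log2 fold changes of 1.83 ± 0.17 against WT (adjusted p = 5.83e-07) and 1.15 ± 0.16 against NC (0.000392). In NC, CCND1 was also above WT without overlap, by 0.67 ± 0.16 (0.00935). CCND2 had 1349, 1474 and 1857 CPM in WT, 730, 755 and 768 in NC and 465, 540 and 478 in ESX1. It descended in the same order as LIN28A and TRIM71, with −1.66 ± 0.12 against WT (3.23e-08), −0.60 ± 0.11 against NC (0.00416), and NC was below WT by −1.05 ± 0.11 (1.72e-05).

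THBS1, a secreted matrix protein, had 10.03 to 22.7 CPM in WT, 36.98 to 50.9 in NC and 79.4 to 209 in ESX1, and its log2 fold change against NC was 1.56 ± 0.28 (adjusted p = 0.00329). CDK6 (1.78 ± 0.42, 0.00378) and IRS2 (1.13 ± 0.24, 0.00182), a cell cycle kinase and an insulin receptor substrate, passed against WT, and their values against NC were 0.69 (0.419) and 0.79 (0.0647). CDC25A, a cell cycle phosphatase, was lower against WT at −0.66 ± 0.12 (0.000551) and had −0.37 (0.106) against NC. MYC and MYCN had 0.60 (0.0549) and −0.43 (0.0713) against WT.

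Across all tested protein-coding genes with a matched 3′ UTR, fold changes were also read by the number of let-7 sites, as a description. The 593 genes with an 8mer had a median log2 fold change of −0.02 for ESX1 against WT, and the 11072 genes with 0 sites had −0.01. Against NC the medians were 0.02 and 0.01. The 29 genes with at least 2 8mers, which include LIN28B, IGF2BP1 and TRIM71, had medians of −0.11 against WT and 0.05 against NC.

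Of 8 mRNAs known to be bound by IGF2BP proteins, 3 passed against WT by edgeR and 2 by DESeq2, with CD44 and IGF2 higher and H19 lower by edgeR, beside 6.78% of all genes higher and 4.77% lower. Against NC, 0 passed by edgeR or DESeq2. At an unadjusted edgeR p below 0.05, 2 were higher and 0 lower, and the share of all genes at that p was not counted. H19 passed as lower in NC than in WT. CD44, a cell surface glycoprotein, had a mean of 0.40 CPM in WT, 0.598 in NC and 2.597 in ESX1, and IGF2 was at or under 3 counts in every WT library, so no fold is given for it. H19, an imprinted long RNA, averaged 27.98 CPM in WT, 5.47 in NC and 5.84 in ESX1, yet its groups overlapped in all 3 comparisons. MYC, whose mRNA IGF2BP1 is known to protect, averaged 11.3, 13.4 and 17.0 CPM in WT, NC and ESX1 with overlap.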

How the data were processed

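Total RNA depleted of ribosomal RNA was sequenced as read pairs with a stranded kit. Per the labels and file headers, the authors aligned reads to GRCh38 with HISAT2 2.0.5 and deposited raw counts per gene from featureCounts without the strand option, on GENCODE 26. The featureCounts version is 1.5.2 in the header and 1.6.5 in the submitters' processing notes. The authors also deposited log2 values normalized with DESeq2, used here as an alternative. Counts were fitted in R 4.3.3 with edgeR 4.0.16 (TMM, filterByExpr, glmQLFit and glmQLFTest, 3 group means over 9 samples), with p-values adjusted by Benjamini-Hochberg over 18452 genes. Calls required at least a 2-fold difference and an adjusted p under 0.05. DESeq2 1.42.0 and limma 3.58.1 served as alternatives. CPM were scaled with TMM factors. Correlations and log2 ratios used a prior count of 0.5. In simulated counts for ESX1 against NC, edgeR recovered 72.0% of 200 changed genes among 18452 by the 2-fold rule, with 8 false calls. Some planted changes were exactly 2-fold, at the limit of that rule, and WT and NC were simulated at equal levels. The share recovered is thus not an estimate for the real comparison. The ESX1 library names carry other numbers than the sample titles, and samples were not treated as pairs. The study calls the replicates biological, and p-values measure the spread between these samples of 1 cell line. The 9 genes and all lists were chosen with earlier results of these data known. Named genes are the 9, the 3 most like each, listed genes that were called or at the ends of their list, and ESX1, while genes of let-7 processing and MYC were added after their values were seen. Some of these genes are not reported here. Seed matches were read from GENCODE 44 transcripts annotated on GRCh37, with no coordinate carried over.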

Additional observations from a re-analysis of the deposited data

How the results depend on the processing

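The counts of the 9 genes past the 2-fold rule (3, 2 and 1 for ESX1 against WT, ESX1 against NC and NC against WT) were the same under DESeq2, other scaling factors, both count filters, fits of only 6 samples, leaving out mitochondrial and short structural RNA genes, thinning, limma on the log2 values and each left-out library. With no minimum fold they were 8, 5 and 2, with 5, 5 and 2 by DESeq2, 5 to 9, 4 to 5 and 2 to 3 over all settings that keep every library, and 5 to 8, 2 to 5 and 1 to 2 over left-out libraries. The paired fit, with a replicate block, added LIN28B to the genes lower than WT (−0.33, adjusted p = 0.0374, in ESX1, and −0.37, 0.0326, in NC). Samples of the same number did not deviate together (correlations −0.03 to 0.19), and of 6 samples 3, 4 and 1 correlated best with their own number in the 3 comparisons. The block left the 2-fold counts of the 9 genes unchanged. Over single-library fits the log2 ratio differences ranged from −1.90 to −1.10 for HMGA2/HMGA1 and from 1.02 to 1.41 for LIN28B/LIN28A. The sign turned for LIN28B against NC without NC replicate 1 (−0.06) and without ESX1 replicate 2 (−0.14; −0.14 to 0.17 over left-out libraries), for HMGA1 against NC without ESX1 replicate 2 (0.0040; −0.30 to 0.0040), and for IGF2BP1 in NC against WT with upper-quartile factors (0.054) or at least 10 counts in every sample (0.0090). Upper-quartile factors moved the median of all genes to 0.11 for ESX1 against WT. The cause was not tested.

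Calls in the let-7 processing list against WT were 1 with upper-quartile factors, 1 after thinning, 8 with no minimum fold and 0 to 1 over left-out libraries. With no minimum fold they were 1 in ESX1 against NC and 5 between the controls. The precursor list gave 1 against WT with no minimum fold. With no minimum fold, the other target genes gave 10 against WT, 5 higher and 5 lower (beside 12.9% and 15.8% of all genes). Between the controls they gave 9 with no minimum fold, 2 higher and 7 lower (beside 6.82% and 10.3%). By the 2-fold rule they gave, between the controls, 1 with upper-quartile factors and 1 to 3 over left-out libraries (1 without WT replicate 3). The IGF2BP-bound mRNAs gave 1 against WT with at least 10 counts or after thinning and 1 to 3 over left-out libraries (1 without WT replicate 3 or ESX1 replicate 1). They gave 1 against NC and, between the controls, 2 with no filter, 2 with no minimum fold, and 0 to 1 there over left-out libraries (0 without NC replicate 2). The 2 with no minimum fold were lower, beside 10.3% of all genes. The interferon list gave 3, 1 and 4 against WT with DESeq2, at least 10 counts and only 6 samples, and 4 to 9 over left-out libraries (4 without ESX1 replicate 2). Against NC it gave 6 with no filter, 5 with the replicate block, 5 with limma and 0 to 9 over left-out libraries (9 without ESX1 replicate 2), and between the controls 3 with DESeq2 and 2 with at least 10 counts. HMGA2 rests on the fewest counts of the 9 genes, so its fold is the least precise.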
